A study of Mus musculus with 12 samples.

Results

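The BCL2 family genes that decide between survival and death of a cell were followed through cultured mouse CD4+ T cells. The group comprised 10 genes listed by name and found by the gene name column of the scanner files: Bcl2, Bcl2l1, Mcl1, Bax, Bak1, Bcl2l11, Bbc3, Pmaip1, Bad and Bid. They were read by 19 probes of the 41174 on the array, and as genes they were 10 of the 17925 tested. All 10 genes and all 19 probes passed the filter on dim probes, and each of these probes was well above background on all 12 arrays.

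The arrays came from 4 groups of 3, all grown from naive CD4+ T cells of C57BL/6 mice (spleen and lymph nodes, isolated magnetically) that were activated with plate-bound anti-CD3 and soluble anti-CD28 and cultured for 5 days. Stimulated Th9 cultures were Th9 cultures that received anti-CD3 at 1 µg/ml for 6 h on day 5. Th9 cultures, the helper cells that make IL-9, received TGF-β at 2 ng/ml, IL-4 at 20 ng/ml and anti-IFN-γ. Th2 cultures received IL-4 and anti-IFN-γ without TGF-β. Treg cultures received TGF-β and anti-IL-4, with IL-2 added at expansion on day 3. A Th9 culture kept for the same 6 h without anti-CD3 was not among the groups analysed here. Whether the 3 arrays of a group stand for separate cultures or animals is not said in the labels. The p-values therefore cover only the spread from array to array, which may be technical.

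Proteins of the BCL2 family govern the permeability of the outer mitochondrial membrane. Survival members (BCL2, BCL-XL, MCL1) hold the effectors BAX and BAK in check, and BH3-only members (BIM, PUMA, NOXA, BAD, BID) bind the survival members or activate the effectors. Once BAX and BAK form pores, cytochrome c leaves the mitochondrion and caspases are activated. In T cells, BCL2 and MCL1 sustain resting cells that receive IL-7, BCL-XL is induced through the T cell receptor and CD28, and BIM drives the loss of activated cells once cytokines run out.

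After 6 h of anti-CD3, the survival transcripts moved apart: Bcl2 was 4.37-fold lower and Bcl2l1 was 4.06-fold higher in stimulated Th9 cells than in Th9 cells. Bid, Pmaip1, Bax and Bak1, all on the death side, were also higher. Other death-side members did not rise. Bbc3 (log2 difference -0.34) and Bad (-0.25) did not pass an adjusted p of 0.05. Bcl2l11 was lower on the probe that stood for it (-0.96, limma, adjusted p = 0.0253). Leaving out stimulated array 3 or Th9 array 1 removed this Bcl2l11 call. Between Th9 and Th2 cells only Bcl2, Bbc3 and Bid were called, all lower in Th9 cells, and none of them was called with the slide as a block. Over all genes tested, 17.0% were called in that comparison, 63.7% after stimulation and 64.0% between Th9 and Treg cells. Against Treg cells, Th9 cells had more Bcl2 and Bcl2l1 and less Mcl1. For Bcl2l11, which encodes BIM, the sign of the difference from Treg cells depended on the probe.

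Several genes were read by more than one probe, and the probe sequences show which stretch of the transcript each value refers to. Those below were chosen because their readings disagree (Bcl2l11) or because they read coding sequence of the genes with the widest spread (Bcl2, Bcl2l1). In the first, capitals mark the codons at the conserved core of the BH3 motif. That probe spans 11096 genomic bases and the next one 682, so each crosses an exon junction. The label coding rests on a reading frame without a stop, and the transcripts read were not checked. Positions are those of the array design on the mm8 build.
Bcl2l11, coding probe A_51_P484880, chr2:127838598-127849693, plus strand: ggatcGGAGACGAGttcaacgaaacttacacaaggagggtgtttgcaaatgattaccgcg
Bcl2l11, coding probe A_52_P348214, chr2:127820441-127821122, plus strand: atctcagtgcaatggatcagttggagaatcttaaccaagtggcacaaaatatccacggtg
Bcl2l11, distal probe A_52_P158527, chr2:127853756-127853815, plus strand, leading 30 bases: aacagcactgatctctgtatagtccccatc
Bcl2, coding probe A_51_P380013, chr1:108539940-108539999, minus strand: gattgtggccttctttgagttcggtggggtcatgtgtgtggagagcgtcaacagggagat
Bcl2l1, coding probe A_52_P510877, chr2:152520890-152520949, minus strand: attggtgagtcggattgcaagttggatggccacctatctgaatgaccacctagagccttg
The distal Bcl2l11 probe starts at base 4804 of its target transcript, and the coding probes start at bases 450 and 682 of theirs. Where a gene had several probes, the probe with the highest mean stood for the gene, and for Bcl2l11 this was the distal one.

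Values below are levels, the log2 processed signal minus the array's 75th percentile, so a level of 0 equals that percentile. Log2 differences carry the standard error from limma (SE), with 3 arrays per group. Levels of different probes are not set against each other. Between 24642 and 26216 probes per array were well above background (59.8 to 63.7%), the 75th percentile lay between 521 and 796 signal units, and arrays of one group correlated at 0.988 to 0.995 over genes. All 10 T cell markers with a probe under that name were above background on every array. Il9 was at 4.87 to 6.11 in stimulated Th9 cells and -2.43 to -1.18 in Th9 cells, whereas no Th2 or Treg array had it well above background. Foxp3, the Treg factor, was at 0.43 to 0.78 in Treg cells and was also above background in both Th9 groups, but not on any Th2 array.

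Markers of other cells differed between groups as well. The summed signal of 10 B cell markers, as multiples of the 75th percentile, was 0.796 to 2.63 in stimulated Th9 cells, 5.38 to 7.12 in Th9 cells, 2.8 to 4.71 in Th2 cells and 58.5 to 80.3 in Treg cells. All 10 were above background on every Th9 and Treg array. In stimulated Th9 cells Blk and Fcrla were not well above background on any array, and in Th2 cells this held for Fcrla. Array 3 of the stimulated Th9 group stood apart from arrays 1 and 2: Cd8a was at -2.23 there, beside 2.47 and 2.29, Ms4a1 at -3.73, beside -0.25 and 0, and Fcgr3 at 1.43, beside -4.27 and -4.42. Slide 1 held the Th2 arrays and Treg array 1, slide 2 Treg arrays 2 and 3 and stimulated Th9 arrays 1 and 2, and slide 3 stimulated Th9 array 3 and the Th9 arrays. No slide held Th9 arrays together with Th2 or Treg arrays. With the slide as a block, slides 2 and 3 were joined only by the stimulated Th9 arrays, and slides 1 and 2 only by the Treg arrays. Slide-block differences that involve Th9 cells therefore lean on 1 array, stimulated array 3.

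**Figure D1:**
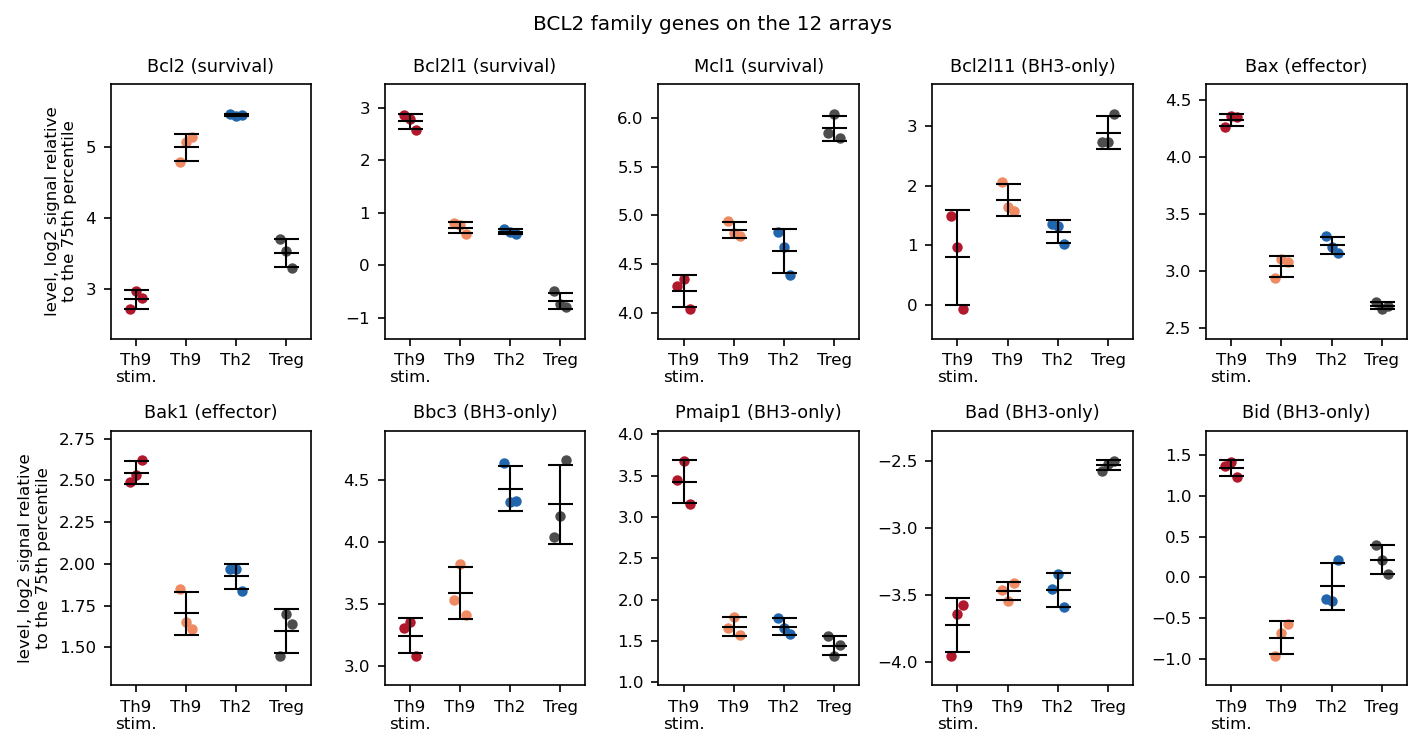
Level of each of the 10 genes on each array (log2 signal relative to the 75th percentile of the array, own vertical scale per panel), by group; points are arrays, the horizontal dash is the group mean and the bar its SD (n = 3). Bcl2l1, Bax, Bak1, Pmaip1 and Bid are highest in stimulated Th9 cells, Mcl1, Bcl2l11 and Bad in Treg cells, and Bcl2 and Bbc3 in Th2 cells.

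Among the survival genes, Bcl2 was at 2.72, 2.98 and 2.88 in stimulated Th9 cells, 4.78, 5.06 and 5.13 in Th9 cells, 5.46, 5.43 and 5.45 in Th2 cells, and 3.7, 3.53 and 3.3 in Treg cells. No 2 groups overlapped, and the order ran from Th2 through Th9 and Treg to stimulated Th9. Bcl2 fell by 2.13 ± 0.13 (SE) on the log2 scale after stimulation (limma, adjusted p = 2.91e-07). In RNA from whole cultures, fewer cells that express a gene and less RNA per cell cannot be told apart. Relative to Treg cells, it was higher by 1.48 ± 0.13 in Th9 cells (limma, adjusted p = 3.55e-06) and by 1.94 in Th2 cells. Its difference between Th9 and Th2 cells, -0.46 ± 0.13, passed the threshold narrowly (limma, adjusted p = 0.036) and missed it with the replicate number as a block, under which the adjusted p was 0.053. Without Th9 array 1 the difference was -0.36 and the adjusted p 0.116, and the call was also lost without Th9 array 2, Treg array 2 or any single Th2 array, with adjusted p of 0.0526 to 0.0939. The call also ended with quantile normalization and in the authors' deposited table (both -0.36), and without a filter on dim probes (adjusted p = 0.061). Under a slide block the difference was -0.21 (limma, adjusted p = 0.855).

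The Bcl2 probes agreed in direction and differed in size. The coding probe printed above read 3.32, 3.32 and 3.64 in stimulated Th9 cells, 4.11, 4.32 and 4.29 in Th9 cells, 5.28, 5.26 and 5.2 in Th2 cells, and 3.93, 3.66 and 3.15 in Treg cells. It gave -0.82 for stimulated Th9 minus Th9 where the reported probe, which starts at base 7109 of its target, gave -2.13. For Th9 minus Th2 the sizes were the other way round, -1.01 on the coding probe (limma over all probes, adjusted p = 0.00432). On the third probe, stimulated Th9 minus Th9 was -1.25 and Th9 minus Treg only 0.13 (limma over all probes, adjusted p = 0.673).

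Bcl2l1, the gene of BCL-XL, was at 2.86, 2.78 and 2.58 in stimulated Th9 cells, 0.8, 0.76 and 0.59 in Th9 cells, 0.69, 0.64 and 0.59 in Th2 cells, and -0.5, -0.74 and -0.8 in Treg cells. Stimulated Th9 cells lay above all others and Treg cells below, while Th9 and Th2 cells overlapped. Of the 10 genes it had the widest range of group means, 3.42 log2 units. It rose by 2.02 ± 0.11 after stimulation (limma, adjusted p = 1.92e-07) and was 1.4 ± 0.11 higher in Th9 cells than in Treg cells (limma, adjusted p = 2.05e-06). The other two probes moved the same way, by 1.11 and 1.75 after stimulation and by 1.59 and 1.56 between Th9 and Treg cells. The Th9 minus Th2 difference was 0.08, with a 95% interval of -0.18 to 0.33. On the other probes it was 0.6 and 0.32, neither called (limma over all probes, adjusted p = 0.0657 and 0.228).

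Mcl1, whose protein is short-lived, followed another order. Its reported probe was at 4.28, 4.35 and 4.04 in stimulated Th9 cells, 4.94, 4.82 and 4.79 in Th9 cells, 4.83, 4.68 and 4.39 in Th2 cells, and 5.84, 6.04 and 5.79 in Treg cells. Treg cells were highest on every array, stimulated Th9 cells lowest, and Th9 and Th2 cells overlapped. It fell by 0.63 ± 0.13 after stimulation (limma, adjusted p = 0.00187) and was lower in Th9 than in Treg cells, at -1.04 ± 0.13 (limma, adjusted p = 6.17e-05). The second Mcl1 probe gave 0.12 after stimulation (limma over all probes, adjusted p = 0.282) and -0.43 for Th9 minus Treg (adjusted p = 0.00249). The drop after stimulation was called on 1 of the 2 probes.

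Both effectors were highest after stimulation. Bax was at 4.26, 4.36 and 4.35 in stimulated Th9 cells, 2.94, 3.11 and 3.08 in Th9 cells, 3.31, 3.21 and 3.16 in Th2 cells, and 2.73, 2.67 and 2.69 in Treg cells. The stimulated arrays lay more than 1 log2 unit above the Th9 arrays, and the rise was 1.28 ± 0.09, or 2.43-fold (limma, adjusted p = 5.19e-07). Treg cells were lowest, 0.35 ± 0.09 below Th9 cells on the Th9 minus Treg difference (limma, adjusted p = 0.00533) and 0.53 below Th2 cells on the Th2 minus Treg difference. Bak1 was at 2.49, 2.53 and 2.62 in stimulated Th9 cells and 1.85, 1.65 and 1.61 in Th9 cells, a rise of 0.84 ± 0.1 (limma, adjusted p = 3.6e-05). Its levels in Th2 cells were 1.97, 1.97 and 1.84, and in Treg cells 1.45, 1.7 and 1.64. The Th9 values overlapped with both, and of these differences Th2 minus Treg passed the threshold, at 0.33 (limma, adjusted p = 0.0181), a call lost without Th2 array 1 or 2 or Treg array 1 (0.26 to 0.31). The second Bak1 probe gave 0.27 after stimulation (limma over all probes, adjusted p = 0.082) and 0.36 for Th9 minus Treg (adjusted p = 0.0265), where the reported probe gave 0.11. With the mean of both probes Th9 minus Treg was 0.23 and called (limma, adjusted p = 0.0466), and with normexp correction Th9 minus Th2 was -0.32 and called (limma, adjusted p = 0.0424).

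**Figure D2:**
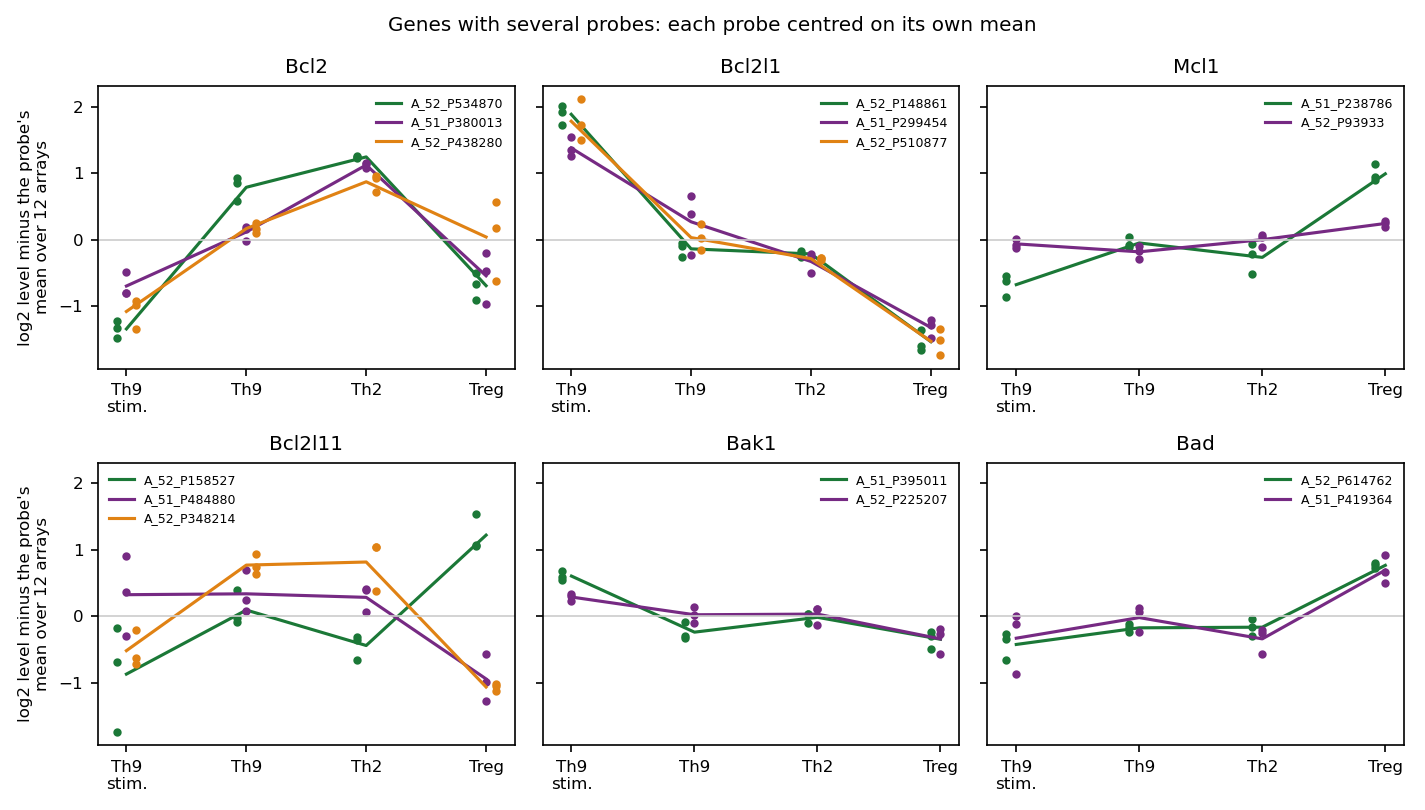
Genes read by several probes: level on each array minus that probe's mean over the 12 arrays (log2), by group; colours are probes, points are arrays and lines join group means. The 3 Bcl2l1 probes give the same order of group means, with differences of unlike size. For Bcl2l11 the distal probe A_52_P158527 is highest in Treg cells and both coding probes are lowest there.

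BIM, the BH3-only protein of Bcl2l11, binds all the survival members. The distal probe was at 1.5, 0.98 and -0.07 in stimulated Th9 cells, 2.07, 1.65 and 1.58 in Th9 cells, 1.36, 1.32 and 1.02 in Th2 cells, and 2.73, 2.74 and 3.21 in Treg cells. On this probe Treg cells were highest, and Th9 minus Treg was -1.13 ± 0.33 (limma, adjusted p = 0.012). The probe over the BH3 core read -1.5, -1.96 and -2.12 in Th9 cells, -1.81, -1.79 and -2.14 in Th2 cells and -3.19, -3.47 and -2.76 in Treg cells, so that Treg cells were lowest. Its Th9 minus Treg difference was 1.28 ± 0.29 (limma over all probes, adjusted p = 0.00268), and that of the other coding probe was 1.83 ± 0.19 (adjusted p = 1.23e-05). Th2 minus Treg split in the same way, with -1.66 on the distal probe and 1.23 and 1.88 on the coding probes. No direction for Bcl2l11 as a gene between Treg cells and the other cultures is therefore given. Whether its probes read the same transcripts was not tested.

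After stimulation the distal Bcl2l11 probe was lower, at -0.96 ± 0.33 (limma, adjusted p = 0.0253). Without stimulated array 3, which stood apart on other markers, the difference was -0.53 and the call was lost (adjusted p = 0.0655), as it was without Th9 array 1 (-0.81, adjusted p = 0.0886). On the probe over the BH3 core, stimulated Th9 cells read -1.29, -1.84 and -2.49, and the difference from Th9 cells was -0.01 (limma over all probes, adjusted p = 0.969). The other coding probe read -3.53, -3.95 and -4.05 in stimulated Th9 cells, against -2.39, -2.59 and -2.69 in Th9 cells, a difference of -1.29 ± 0.19 (adjusted p = 0.000141).

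Pmaip1, which encodes NOXA, a partner of MCL1, separated stimulated cells from the rest. It was at 3.45, 3.67 and 3.15 in stimulated Th9 cells, 1.66, 1.79 and 1.57 in Th9 cells, 1.78, 1.66 and 1.58 in Th2 cells, and 1.56, 1.32 and 1.45 in Treg cells. The rise after stimulation was 1.75 ± 0.14, or 3.36-fold (limma, adjusted p = 1.24e-06). Differences among the unstimulated cultures did not pass the threshold, except that Th9 minus Treg did so with the slide as a block (0.7, limma, adjusted p = 0.0275).

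Bid, whose product is cut by caspase-8 and then acts on mitochondria, had the largest rise among the death-side members. Its levels were 1.37, 1.42 and 1.23 in stimulated Th9 cells, -0.96, -0.68 and -0.57 in Th9 cells, -0.26, -0.29 and 0.22 in Th2 cells, and 0.4, 0.22 and 0.04 in Treg cells. Th9 cells were the lowest of the 4 groups with no overlap. Stimulated cells were 2.08 ± 0.16 higher than Th9 cells, or 4.22-fold (limma, adjusted p = 1.26e-06). Bid was lower in Th9 cells than in Th2 cells, at -0.63 ± 0.16 (limma, adjusted p = 0.0248), and than in Treg cells, at -0.96 ± 0.16 (limma, adjusted p = 0.000408). The call against Th2 cells was lost without Th2 array 3 (-0.46), Th9 array 1 (-0.51) or Th9 array 2 (-0.66), with adjusted p of 0.059 to 0.0879, and in a fit of only the 6 arrays compared (adjusted p = 0.064). Under a slide block Th9 minus Th2 was -0.19 (limma, adjusted p = 0.908) and Th9 minus Treg was -0.71 (adjusted p = 0.104). Th2 minus Treg was not called, at -0.33, but was without Th2 array 3, at -0.5 (limma, adjusted p = 0.0152).

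Bbc3, the gene of PUMA, a p53 target, differed between the unstimulated cultures. It was at 3.3, 3.35 and 3.08 in stimulated Th9 cells, 3.53, 3.82 and 3.41 in Th9 cells, 4.64, 4.32 and 4.33 in Th2 cells, and 4.04, 4.21 and 4.66 in Treg cells. Every Th9 array lay below every Th2 and Treg array. Th9 minus Th2 was -0.84 ± 0.18 (limma, adjusted p = 0.00946) and Th9 minus Treg was -0.72 ± 0.18 (limma, adjusted p = 0.0045). Under a slide block the differences were -0.99 and -0.6 and neither was called (adjusted p = 0.275 and 0.155). The change with stimulation was -0.34, with a 95% interval that included 0 (limma, adjusted p = 0.111). Under quantile normalization it was -0.63 and passed the threshold (limma, adjusted p = 0.00557), as it did in the authors' deposited table.

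Bad, a binding partner of BCL2 and BCL-XL held inactive by phosphorylation, was read by 2 probes. By the array's mm8 positions the probe that stood for the gene lies on the minus strand, opposite to the plus strand that RefSeq gives for Bad, and the other probe lies on the plus strand. The plus-strand probe was at -4.48, -3.72 and -3.61 in stimulated Th9 cells, -3.85, -3.48 and -3.55 in Th9 cells, -3.86, -4.17 and -3.81 in Th2 cells, and -2.94, -3.11 and -2.69 in Treg cells. Treg cells were highest with no overlap. Th9 minus Treg was -0.71 ± 0.22 on this probe (limma over all probes, adjusted p = 0.016) and -0.94 ± 0.12 on the minus-strand probe (adjusted p = 4.47e-05). Which transcript the minus-strand probe reads was not tested, and Bad is uncertain where the counts below include it. Without stimulated array 3, the minus-strand probe was called lower after stimulation, at -0.33 (limma, adjusted p = 0.0389), against -0.25 with it (adjusted p = 0.0807).

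**Figure D3:**
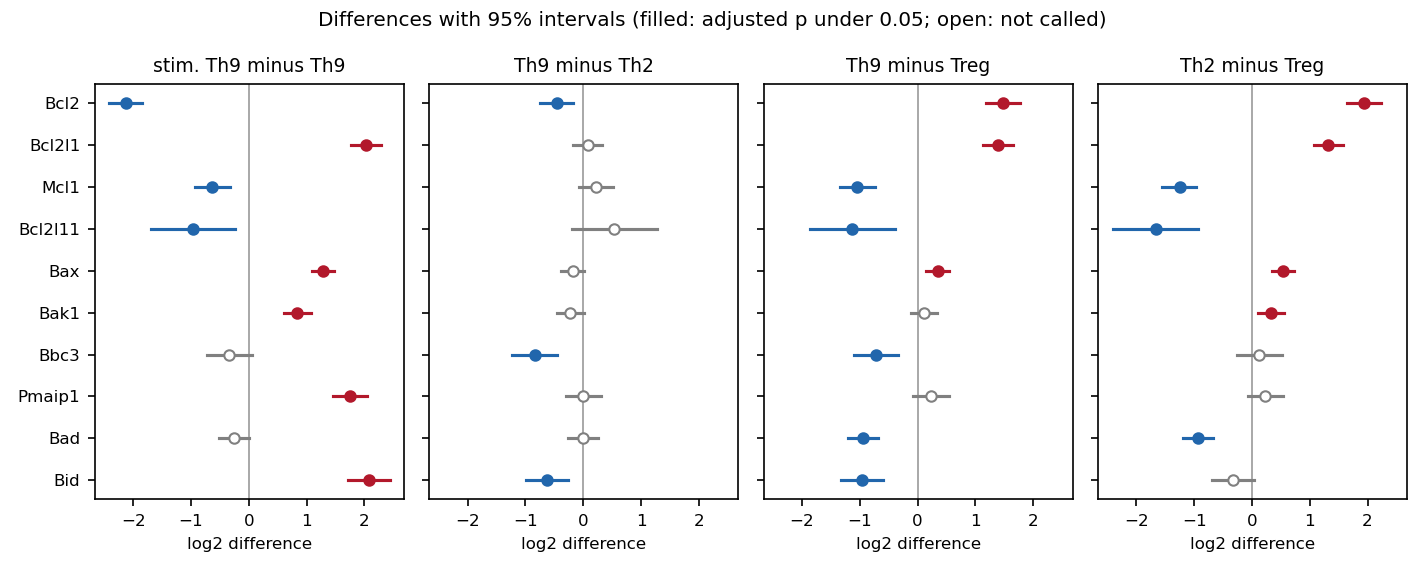
Log2 differences of the 10 genes in the 4 comparisons, each by the probe that stood for the gene, with 95% intervals (n = 3 arrays per group); filled points passed an adjusted p of 0.05, red for higher and blue for lower in the group named before "minus". The widest contrasts are Bcl2 at -2.13, Bid at 2.08 and Bcl2l1 at 2.02 after stimulation, and no gene was called higher in Th9 cells than in Th2 cells.

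Stimulation of Th9 cells moved most of the group. Of the 10 genes, 5 were called higher (Bcl2l1, Bax, Bak1, Pmaip1 and Bid) and 3 lower (Bcl2, Mcl1 and Bcl2l11). Over all genes tested 63.7% were called in this comparison, 33.2% higher and 30.5% lower, so a count of 8 of 10 has to be read against a transcriptome in which most genes moved. The median absolute difference was 1.12 log2 units in the group and 0.67 over all genes. A called difference of at least 2-fold was found for 5 of the 10, against 34.3% of all genes. Within slide 3, which held stimulated array 3 and the Th9 arrays, the differences were -2.11 for Bcl2, 1.86 for Bcl2l1, 1.31 for Bax, 0.91 for Bak1, 1.48 for Pmaip1, 1.97 for Bid, -0.81 for Mcl1 and -1.84 for Bcl2l11, against -0.96 for Bcl2l11 over all arrays. The summed signal of 8 CD8 T cell and NK cell markers was 3.17 to 20 in stimulated Th9 cells and 23.8 to 31.3 in Th9 cells, and B cell marker signal was also lower after stimulation. The part of these markers in the differences was not tested.

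Th9 and Th2 cultures differed by TGF-β. Here 0 of the 10 genes were called higher and 3 lower (Bcl2, Bbc3 and Bid), beside 17.0% of all genes called, 7.76% higher and 9.25% lower. At an unadjusted p under 0.05 in limma the counts of members were the same, 0 higher and 3 lower. The median absolute difference, 0.22, was close to that over all genes, 0.25, and no member reached a called 2-fold difference. With the slide as a block in limma, 0 members and 317 genes were called, and 3 members were higher and 2 lower at an unadjusted p under 0.05. These groups shared no slide, and slide and culture cannot be fully told apart here.

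Th9 and Treg cultures shared TGF-β and differed in IL-4, the blocking antibodies and added IL-2. Of the 10 genes, 3 were called higher in Th9 cells (Bcl2, Bcl2l1 and Bax) and 5 lower (Mcl1, Bcl2l11, Bbc3, Bad and Bid), beside 64.0% of all genes called, 28.8% higher and 35.3% lower. The direction for Bcl2l11 turned on its coding probes. With the slide as a block 5 members were called, and the calls of Bcl2l11, Bax, Bbc3 and Bid were lost, while Bak1 was at -0.07 instead of 0.11. The summed B cell marker signal was higher in Treg cells, as given above. Of 11 myeloid and dendritic cell markers 3 were called higher and 6 lower in Th9 cells, and their summed signal was 11.4 to 14.9 in Th9 cells and 19.6 to 20.7 in Treg cells. Mpeg1 was at -5.94, Lyz2 was at least 91.9-fold lower (its near-identical copy may share the probe) and Itgam at least 2.95-fold lower, the last pair not well above background on any Th9 array. Of 10 T cell markers 6 were called lower in Th9 cells, with a summed signal of 294 to 340 in Th9 cells and 516 to 637 in Treg cells. The part of these markers in the differences was not tested.

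In Th2 cells compared with Treg cells, 4 genes were called higher (Bcl2, Bcl2l1, Bax and Bak1) and 3 lower (Mcl1, Bcl2l11 and Bad), beside 62.7% of all genes called, 29.3% higher and 33.5% lower. This comparison shares the Treg arrays with the previous one. Mcl1 was at -1.25 on its reported probe and -0.24 on the other. Within slide 1, with 3 Th2 arrays and Treg array 1, Bcl2 differed by 1.75, Bcl2l1 by 1.14, Mcl1 by -1.21 and Bax by 0.5. The B cell marker signal again differed between the groups. Of the 11 myeloid markers 3 were called higher and 6 lower in Th2 cells, with Mpeg1 at -7.78, Lyz2 at least 78.2-fold lower and Itgam at least 2.51-fold lower, and of the 10 T cell markers 7 were called lower (summed signal 352 to 365 in Th2 cells). Their part in the differences was not tested.

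Other BCL2 family genes moved with stimulation too. Bcl2a1b, a survival gene induced by NF-κB, was 3.44 ± 0.18 higher in stimulated than in unstimulated Th9 cells (limma, adjusted p = 1.34e-07), although the near-identical Bcl2a1 copies may share its probe. Bcl2l2, the gene of BCL-W, was lower, at -1.49 ± 0.14 (limma, adjusted p = 4.09e-06). Of 11 further death and BH3-only genes tested, 4 rose and 4 fell, beside 33.2% and 30.5% of all genes. The largest falls were in Bnip3 (-3.42) and Bnip3l (-2.95), hypoxia-responsive mitophagy receptors, and in Bmf (-2.61), a BH3-only gene. Bnip3 was also 4.92 higher in Th9 than in Treg cells and 4.63 higher in Th2 than in Treg cells. Against Treg cells, 7 of these 11 were higher and 2 lower in Th9 cells (28.8% and 35.3% of all genes), among them Bnip3l at 2.31, and against Th2 cells only Bcl2l14 was called, at -1.21. Here and in the lists below, Th9 minus Th2 values stand beside 17.0% of all genes called. Th9 cells shared no slide with Th2 or Treg cells, and with a slide block 317 genes were called for Th9 minus Th2. The listed genes were not followed through the alternatives.

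**Figure D4:**
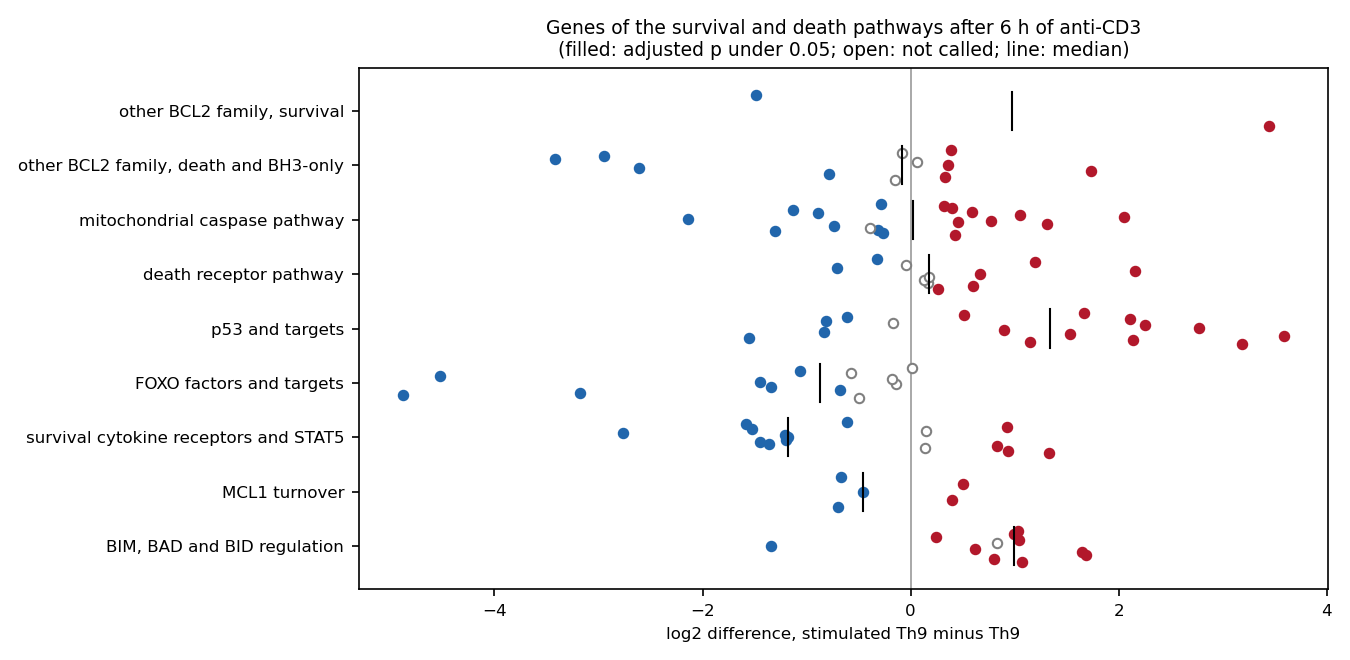
Log2 difference between stimulated Th9 and Th9 cells for each gene tested in 9 lists of survival and death pathway genes; filled points passed an adjusted p of 0.05 and the vertical line is the median of the list. Most p53 genes lie to the right of 0 (median 1.34), and no FOXO gene was called higher (median -0.87).

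Downstream of the mitochondrion, 9 of 18 genes of the caspase pathway rose after stimulation and 8 fell, beside 33.2% and 30.5% of all genes. Cycs, which encodes cytochrome c, was higher by 2.05, while Casp9, the initiator of the mitochondrial route, was at -2.14. In Th9 cells Diablo, whose product relieves caspase inhibition, was lower than in Th2 cells (-0.54), and Birc3, an inhibitor of apoptosis, was higher (0.65). Against Treg cells, 9 were higher and 4 lower in Th9 cells (28.8% and 35.3% of all genes), with Vdac1 at 2.67, Endog at 2.1 and Casp6 at 1.98.

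Of 11 death receptor genes, 5 rose and 2 fell with stimulation, a share called close to the 63.7% over all genes. Tnfrsf10b, the TRAIL receptor, was higher by 2.16 and its ligand gene Tnfsf10 by 1.2. Fasl, the ligand of Fas, was 2.1 ± 0.37 higher in Th9 than in Th2 cells (limma, adjusted p = 0.00413), and Casp8, whose product cuts BID, was lower there (-0.74). Fas was lower in Th9 cells than in Treg cells, at -1.19.

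Among 16 p53 genes (p53 and its targets), 11 were called higher and 4 lower after stimulation, beside 33.2% and 30.5% of all genes. The 4 called lower were Ddit4 (-1.55), Gadd45a (-0.83), Sesn1 (-0.81) and Trp53, the gene of p53 itself (-0.61). Aen, an apoptosis-enhancing nuclease, was at 3.19, and Perp, a membrane protein of p53-dependent apoptosis, at 2.77. Eda2r was at least 3.16-fold higher, since it was not well above background on any Th9 array. Of the members that are p53 targets, Bax and Pmaip1 rose and Bbc3 was at -0.34, called lower only in quantile-normalized values. Gadd45a was 3.02 higher in Th9 than in Th2 cells, Cdkn1a 4.23 higher in Th9 than in Treg cells, and Sesn1 was at -3.71 for Th9 minus Treg.

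FOXO factors and their targets, a class that includes Bcl2l11 in other settings, were called lower in 7 of 12 cases after stimulation and higher in none, beside 30.5% of all genes lower and 63.7% called either way. Ccng2 was at -4.88, Pik3ip1 at -4.52 and Cdkn1b, which encodes the cell cycle inhibitor p27, at -3.18. In Th9 cells 6 of the 12 were lower and 1 higher than in Treg cells (35.3% and 28.8% of all genes), with Txnip at -4.18 and Pik3ip1 at -2.28. Foxo1 itself was 1.8 higher in Th9 than in Th2 cells.

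Survival cytokine receptors and the STAT5 route, which maintain Bcl2 and Mcl1 transcription, fell in 9 of 15 cases after stimulation and rose in 4, beside 30.5% and 33.2% of all genes. Pim2, a survival kinase, was at -2.76, Stat5b at -1.58 and Stat3 at -1.52. The 4 that rose were Il15ra (1.33), Il2ra (0.94), Stat5a (0.93) and Il2rg (0.83), so the STAT5 genes were split. In Th9 cells 9 of the 15 were higher than in Treg cells and 4 lower (28.8% and 35.3% of all genes), among them Pim3 at 3.24 and Il2ra at 1.94. Compared with Th2 cells, Th9 cells had more Stat5a (1.11) and Stat5b (0.84).

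Genes that act on the proteins of the group after translation were described by the same counts, to be read against 33.2% of all genes higher and 30.5% lower after stimulation. Of 5 genes tested for MCL1 turnover, 2 rose and 3 fell with stimulation. Btrc had the largest change, at -0.7. Huwe1, a ubiquitin ligase for MCL1, was at 0.5 and the deubiquitinase gene Usp9x at -0.67. Of 11 genes that regulate BIM, BAD or BID, 9 rose and 1 fell. Dynll1, the dynein light chain that binds BIM, was higher by 1.65 and the ERK phosphatase gene Dusp6 by 1.69. Dusp6 was lower in Th9 than in Th2 cells, at -1.65, as was the calcineurin gene Ppp3ca, at -1.26. Ppp3ca was also at -2.7 for Th9 minus Treg, and Gzmb, whose protease can cut BID, at 2.65.

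Across the 12 arrays, Bax tracked Bcl2l1 (Pearson r = 0.97), Pmaip1 (0.97) and Bak1 (0.96), and Mcl1 tracked Bad (0.94). Each gene was read here by the probe that stood for it, which for Bad was the minus-strand probe of uncertain target. These correlations describe 4 groups on shared slides and carry no test. The genes closest to Bcl2l1 over the 12 arrays were Pde12 (r = 0.995), 4930502C15Rik (0.994) and Cct6b (0.992). Closest to Bcl2 were Ddit3 (0.991), Cfap20dc (0.989) and Trim45 (0.986). For Bid they were Pus7l (0.994), Chst2 (0.993) and Exosc7 (0.991), and for the distal Bcl2l11 probe Gm4836 (0.974), Klrd1 (0.968) and Atxn1l (0.961).

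Promoter sequence from RefSeq (GRCm38.p6) matched 9 of the 10 genes, Pmaip1 being the exception, in 15 windows of 250 bases before a start. A FOXO motif (TGTTTAC, either strand) was present in the windows of Bcl2l11 and Bbc3, and in 3.17% of all 32851 windows. A 10-base unit of the p53 element, which is only part of a full element, was found for Bax and in 7.13% of all windows. The motifs of STAT5 (TTCNNNGAA), STAT6 and AP-1 (TGANTCA), searched on both strands, were in 0 of the 15 windows, and in 7.02%, 5.85% and 6.75% of all windows. These are matches of letters and no binding was measured. The windows of Bcl2l11 and Bax are shown, as members of the FOXO and p53 classes described above, with the match in capitals, 227 and 201 bases before the start.
Bcl2l11, chr2:128125788-128126037, plus strand: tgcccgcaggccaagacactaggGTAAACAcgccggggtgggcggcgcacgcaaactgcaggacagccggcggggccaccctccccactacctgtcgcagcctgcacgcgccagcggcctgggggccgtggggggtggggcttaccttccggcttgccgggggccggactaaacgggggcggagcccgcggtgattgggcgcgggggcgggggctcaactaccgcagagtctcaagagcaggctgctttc
Bax, chr7:45466899-45467148, minus strand: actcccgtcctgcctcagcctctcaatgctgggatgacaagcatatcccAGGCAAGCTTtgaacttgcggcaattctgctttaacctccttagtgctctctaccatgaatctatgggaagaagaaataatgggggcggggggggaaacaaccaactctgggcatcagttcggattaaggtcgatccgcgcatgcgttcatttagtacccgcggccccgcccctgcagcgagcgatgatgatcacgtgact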

How the data were processed

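Spot intensity on a linear scale is what the deposited scanner files hold. Per the file headers it came from Agilent Feature Extraction (version 10.5.1.1), which subtracted background inside each array. A series-wide table, also deposited, holds log2 values. Judged from the values it is quantile normalized: its columns correlated at 0.9996 or above with log2 processed signal, their medians lay between 5.171 and 5.174, and 83 values were missing. Its tool and offset are not stated in the labels. It served as an alternative, and a second deposited export of the same intensity values was not used.

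Log2 of the processed signal minus each array's 75th percentile was taken, without control spots and outlier spots. A probe was kept when well above background on at least 3 of the 12 arrays (27130 of 41174 probes), and the brightest kept probe by mean level stood for a gene. Probes were named through accessions (24375), symbols (6301) or older symbols (2426) of the RefSeq genes of GRCm38.p6, and 8072 kept the name of the array design. No probe was saturated. All arrays were fitted with limma 3.58.1 in R 4.3.3 (with the package data.table, version 1.17.8), with 1 mean per group, 8 residual and 2.51 prior degrees of freedom. P-values were Benjamini-Hochberg adjusted within a comparison over all genes, or over all probes where stated, and called at 0.05. The number of arrays, 3 per group, limits the precision.

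The members, the gene lists and the tests were chosen with earlier results of these data known. Named list genes are up to 3 called genes per list and comparison with the largest change. The cytokine receptor and STAT5 genes called higher after stimulation are named as well, as are the p53 genes called lower. Some genes this rule gave are not reported here. The genes of like pattern are the 3 with the highest Pearson correlation to each of the 4 members of widest range. Same-numbered Th9 and Th2 arrays deviated together (correlations 0.2, 0.18 and 0.41), and a replicate block is given for all comparisons. Alternatives were normexp background correction (offset 50), quantile normalization, the deposited log2 values, other filters and probe rules, only the 6 arrays compared, slide and replicate blocks, and leaving out each array.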

Additional observations from a re-analysis of the deposited data

How the results depend on the processing

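Called member differences counted as unchanged in 551 of 587 alternative values, 26 lost the call, 3 turned sign and 7 within-slide values moved in size. Leaving out an array of a group not compared keeps the difference itself, so many of these values could change only in their p-value. Unchanged means the same direction and call, or, for within-slide values, which carry no test, the same direction and a like size. Bcl2, Bcl2l1, Mcl1 and Bad for Th9 minus Treg, and Bcl2, Bcl2l1, Mcl1, Bax, Bak1, Pmaip1 and Bid after stimulation, held in all 22 alternatives. Most of these alternatives read a gene by the probe that stood for it, so they say little about its other probes. The second probes of Mcl1 (0.12) and Bak1 (0.27) after stimulation were not called, nor was the third Bcl2 probe for Th9 minus Treg (0.13). The cause of the changes below was not tested, unless stated. By the layout of the slides, slide-block differences that involve Th9 cells lean on stimulated array 3, as given above. Testing every probe raised the genes or probes called to 17470 (Th9 minus Treg), 17560 (stimulated Th9 minus Th9) and 17214 (Th2 minus Treg), since more features were tested. The slide block left 317 genes and 0 members for Th9 minus Th2, and 6685 genes and 5 members for Th9 minus Treg, with Bcl2l11 at 0.11 and Bak1 at -0.07, and it made 59.3% of the Th9 minus Th2 calls higher instead of 45.6%. With the mean of a gene's probes, Bcl2l11 was at 0.66 for Th9 minus Treg and 0.48 for Th2 minus Treg, and Bad at 0.15 for Th9 minus Th2.

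Leaving out 1 array gave 1818 to 3512 genes and 1 to 3 members for Th9 minus Th2. The low end came without Th9 array 2 (1818), Th2 array 2 (1870), Th2 array 1 (1912) or Th9 array 1 (2023), and 1 member remained called without Th2 array 3, Th9 array 1 or Th9 array 2. Differences near 0 changed sign: Pmaip1, Th9 minus Th2, was -0.06 with normexp and -0.05 to 0.06 when 1 array was left out, with the sign turned without Th2 array 2 (0), Th2 array 3 (-0.04) or Th9 array 2 (-0.05); Bad, Th9 minus Th2, was 0.05 without Th2 array 2 and 0.03 without Th9 array 2; and Bbc3, Th2 minus Treg, was -0.04 with quantile normalization and in the authors' deposited table, and 0 to 0.31 when 1 array was left out, the lowest without Treg array 1. Normexp moved the median of all genes after stimulation by 0.1, as did testing without a filter, which moved that of Th2 minus Treg by 0.11.

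With the replicate block 3085 genes and 2 members were called for Th9 minus Th2, Bcl2 losing its call. For the other comparisons same-numbered arrays deviated with correlations from -0.01 to 0.21. For Th9 minus Treg and stimulated Th9 minus Th9 all 3 arrays of each group matched best with their own number, as for Th9 minus Th2. For Th2 minus Treg 1 of each did. The block gave 11534, 11598 and 11307 genes for Th9 minus Treg, stimulated Th9 minus Th9 and Th2 minus Treg, with 8, 8 and 7 members.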
